A study of Mus musculus with 14 samples.

Results

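The 8 genes described here encode the core enzymes of polyamine metabolism and their antizyme regulator: Odc1, Oaz1, Amd1, Amd2, Srm, Sms, Sat1 and Smox. They were taken by gene symbol, and each was found once among the 49585 genes of the deposited tables. RNA-seq was performed on mouse hind limb skeletal muscle in 4 groups of 3 libraries: wild-type (WT) uninjured, Myf6 knockout (KO) uninjured, WT injured and KO injured. Myf6 (MRF4) belongs to the myogenic regulatory factors, which switch on muscle genes, and the study asks how it acts on the muscle stem cell pool through secreted proteins. Age, sex, strain background, the knockout allele, and how and when the injury was made are not given in the sources used here. Each genotype is represented by 3 numbers, and the uninjured (L) and injured (R) libraries of a genotype carry the same numbers. These were read as animals and their left and right legs. The numbers differ between WT and KO, so genotype and any difference of litter or handling between them cannot be told apart. A list of Flag-Myf6 ChIP-seq peaks, from 1 library of primary myotubes grown from satellite cells and 1 control, was set beside the genes.

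Polyamines are small cations that bind RNA, DNA and proteins and are needed for translation and growth. Ornithine decarboxylase (Odc1) makes putrescine, and antizyme (Oaz1) binds that enzyme and delivers it to the proteasome. S-adenosylmethionine decarboxylase (Amd1, Amd2) makes the aminopropyl donor, with which spermidine synthase (Srm) and spermine synthase (Sms) build the higher polyamines. Spermine oxidase (Smox) turns spermine back to spermidine, and spermidine/spermine acetyltransferase (Sat1) tags polyamines for export or oxidation. In skeletal muscle, several of these transcripts are known to respond to changes of muscle mass.

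None of the 8 genes passed the test between genotypes or between injury states. Among them Sat1 was lower in all 3 uninjured KO libraries than in any uninjured WT library, as were 15.5% of the 12460 genes tested. In injured muscle the Sat1 groups overlapped. Amd1 ranged 10.5-fold and Oaz1 7.22-fold over the 12 libraries, while Srm ranged only 1.28-fold. Values are reads per 1000000 reads assigned to genes (RPM), changes are given as differences of log2(RPM + 1), and errors are SD over 3 libraries unless named otherwise.

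Amd1 and Amd2 are shown by sequence because they are near copies whose reads may not be separable. Both lie on the minus strand of chromosome 10 (RefSeq, GRCm38.p6). Amd1 spans 14731 bases and Amd2 spans 3201 bases. Printed are the 40 bases before and the 30 bases from the gene start (chr10:40302159-40302228 for Amd1, chr10:35711862-35711931 for Amd2). Capitals mark the part of a shared run of 48 bases that falls in these windows. It starts at base 3 of the Amd1 transcript and at base 1 of the Amd2 transcript and holds a short open frame of 21 bases from ATG to stop.
Amd1: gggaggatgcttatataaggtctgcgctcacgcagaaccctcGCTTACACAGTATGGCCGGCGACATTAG
Amd2: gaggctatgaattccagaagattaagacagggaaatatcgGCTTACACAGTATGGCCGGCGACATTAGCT
Lined up at the annotated starts, 64 of the 250 positions before them were identical. The shared run begins at base 3 in Amd1 and base 1 in Amd2, so this count is out of register. It cannot show whether the likeness went on before the starts. How the authors' counting assigned reads that match both genes is not given in the sources used here, so the values of Amd1 and Amd2 are uncertain to that extent. Other members have annotated pseudogenes in the tables, Oaz1-ps with 0 to 3.39 RPM and Sms-ps with 0 to 0.122 RPM, both far below their parent genes.

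Odc1, the first enzyme of the pathway, stood at 68.9, 61.2 and 88.7 RPM in uninjured WT muscle and at 35.1, 27.7 and 100.4 RPM in uninjured KO muscle. The first 2 KO libraries were below every WT library and the third was above them all, so the groups overlapped. The limma change was -0.63 on the log2 scale (SE 0.45, adjusted p = 0.569). The injured WT libraries held 65.5, 117.6 and 70.1 RPM of Odc1 and the injured KO libraries 65.4, 37.7 and 90.2 RPM, again with overlap. The change there was -0.42 (SE 0.37, limma adjusted p = 0.734).

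Oaz1, the inhibitor of that enzyme, had its highest values in KO libraries and also its lowest. Uninjured WT muscle held 84.9, 48.9 and 111.3 RPM, and uninjured KO muscle held 171.2, 42.4 and 279.4 RPM. Injured WT muscle held 61.1, 155.6 and 102.6 RPM, and injured KO muscle held 296.6, 63.0 and 306.1 RPM. KO replicates 1 and 3 exceeded every WT library of their injury state, and KO replicate 2 lay inside or below the WT range in both. The mean was 81.7 ± 31.3 RPM in uninjured WT and 164.4 ± 118.7 RPM in uninjured KO muscle, a difference of 0.71 (SE 0.62, limma adjusted p = 0.650). Among injured libraries it was 0.85 (SE 0.65, limma adjusted p = 0.693). For Oaz1 the authors' deposited table gave a p-value of 0.0143 and a q-value of 0.512 in uninjured muscle.

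Amd1 varied more from animal to animal than between groups. Its values were 146.2, 149.5 and 324.3 RPM in uninjured WT muscle and 98.3, 63.4 and 629.5 RPM in uninjured KO muscle. In injured muscle they were 161.5, 668.9 and 230.5 RPM in WT and 278.4, 110.6 and 622.9 RPM in KO. KO replicate 3 was high in both legs, and WT replicate 2 was high in the injured leg only. The change between genotypes was -0.28 (SE 0.75, 95% interval -1.96 to 1.40, limma adjusted p = 0.902) in uninjured and -0.12 (SE 0.73, limma adjusted p = 0.973) in injured muscle. Its sign in uninjured muscle depended on the tool, since edgeR gave 0.37 and the fold change in the authors' deposited table was 0.38, both turned to KO over WT.

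Amd2 rested on few reads, between 7 and 328 per library, and scattered without regard to group. The uninjured WT libraries held 0.579, 13.3 and 0.231 RPM and the uninjured KO libraries 2.24, 0.866 and 7.53 RPM. The injured libraries held 1.95, 0.636 and 10.4 RPM in WT and 3.13, 10.1 and 6.64 RPM in KO. Amd2 came to between 0.0711% and 9.16% of the Amd1 value of the same library. The genotype changes of 0.30 (SE 0.92) and 0.89 (SE 0.72) had limma adjusted p = 0.916 and 0.709.

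Srm, spermidine synthase, was the steadiest member. Its values were 9.75, 8.51 and 8.96 RPM in uninjured WT, 8.98, 8.03 and 8.79 in uninjured KO, 8.18, 9.21 and 10.3 in injured WT and 8.94, 8.69 and 8.42 in injured KO muscle. The SD of its log2 values over the 12 libraries was 0.0904, against a median of 0.472 over 13337 genes, and only 3 of those genes had a lower SD. The smallest library held 16 Srm reads. This SD was taken on RPM without further scaling. With TMM scaling the injury change of Srm in KO was -0.25 (limma adjusted p = 0.901), against 0.01 without it. The genotype changes were -0.07 in both injury states, with 95% intervals of -0.76 to 0.62 (uninjured) and -0.47 to 0.33 (injured), so a change of 2-fold or more lay outside both intervals.

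Sms, spermine synthase, stood at 87.4, 76.6 and 118.4 RPM in uninjured WT and at 104.9, 75.1 and 171.7 RPM in uninjured KO muscle. Injured WT muscle held 85.4, 110.0 and 98.7 RPM, and injured KO muscle held 149.0, 71.1 and 161.3 RPM. KO replicate 2 was the lowest library of each injury state, and the groups overlapped. The changes were 0.25 (SE 0.34, limma adjusted p = 0.786) and 0.29 (SE 0.33, limma adjusted p = 0.798).

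**Figure D1:**
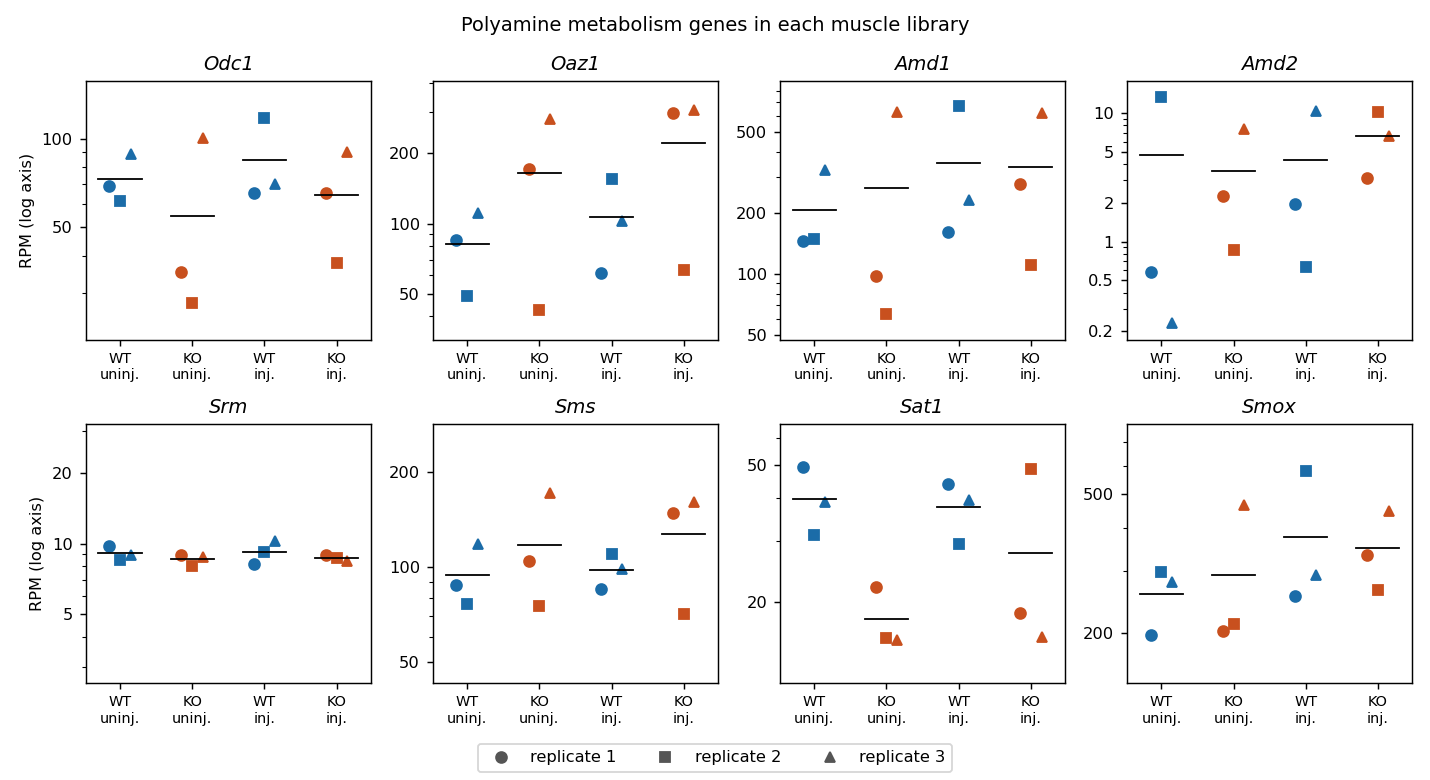
RPM of each gene (vertical log axis, RPM) in the 12 muscle libraries, by group on the horizontal axis; marker shape gives the replicate number, blue is WT, orange is KO, and the bar is the mean of 3. Srm stays between 8.03 and 10.3 RPM and Amd1 runs from 63.4 to 669. The 3 uninjured KO libraries lie below the 3 uninjured WT libraries for Sat1, as for 15.5% of genes tested.

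Sat1, the acetyltransferase of polyamine breakdown, was the member with the clearest separation of genotypes. Uninjured WT muscle held 49.3, 31.4 and 39.2 RPM and uninjured KO muscle 22.2, 15.7 and 15.6 RPM, with no overlap. The means were 39.9 ± 8.97 and 17.8 ± 3.77 RPM. The change was -1.12 (SE 0.30, 95% interval -1.80 to -0.43), with a limma adjusted p = 0.159, which does not pass the threshold of 0.05. An exact two-sided permutation test gave p = 0.1, the smallest that 3 against 3 can give. The authors' deposited table gave Sat1 a q-value of 0.344. Non-overlapping groups with KO lower occurred in 15.5% of the 12460 genes tested, so this pattern was common in the comparison. The median change of all genes was -0.18 in this comparison (-0.02 after TMM scaling), and relative to it the change of Sat1 was -0.94.

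The injured WT libraries held 44.1, 29.6 and 39.5 RPM of Sat1 and the injured KO libraries 18.6, 48.9 and 15.8 RPM. KO replicates 1 and 3 were below every WT library and KO replicate 2 was above them all. The change was -0.59 (SE 0.42, limma adjusted p = 0.666). KO replicate 2 also differed within its own animal: Sat1 was 3.10-fold higher in its injured than in its uninjured library, while in the other animals the ratio lay between 0.836 and 1.02.

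Smox, spermine oxidase, did not separate the genotypes. It stood at 197.0, 297.9 and 279.1 RPM in uninjured WT and at 203.0, 212.6 and 462.7 RPM in uninjured KO muscle. The injured libraries held 255.8, 577.7 and 292.1 RPM in WT and 334.1, 266.1 and 445.4 RPM in KO. The highest libraries, injured WT replicate 2 and both libraries of KO replicate 3, were also the highest for Amd1. The changes were 0.10 (SE 0.36, limma adjusted p = 0.935) and -0.04 (SE 0.35, limma adjusted p = 0.982).

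**Figure D2:**
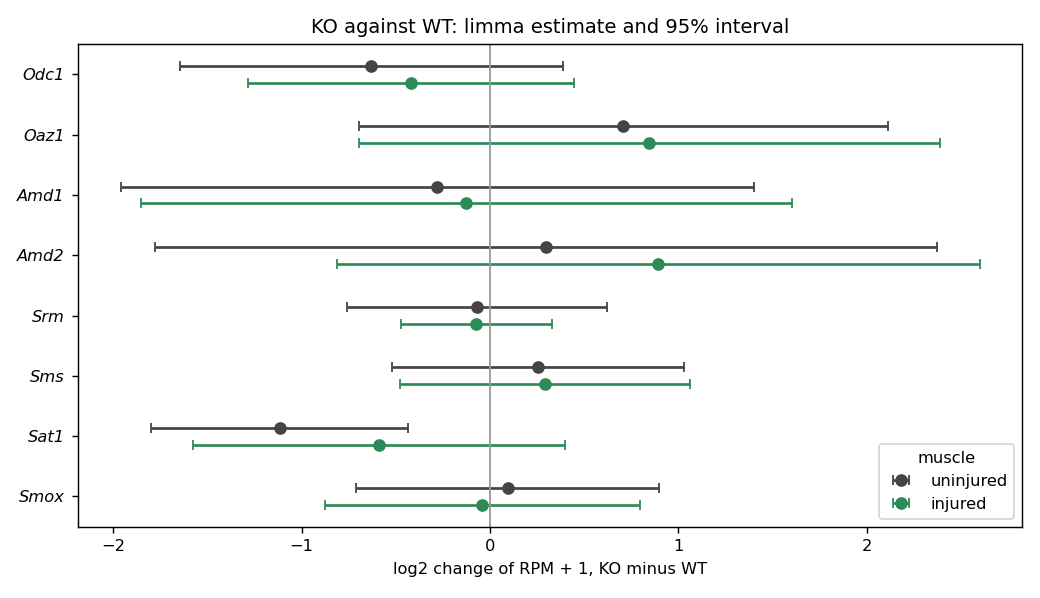
Change of each gene between KO and WT (horizontal axis, log2 of RPM + 1, KO minus WT) in uninjured (grey) and injured (green) muscle; points are limma estimates and bars 95% intervals, from 3 against 3 libraries. The interval of Sat1 in uninjured muscle, -1.80 to -0.43, does not include 0, before adjustment over all genes.

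Read over the whole set, 0 of 8 genes passed in uninjured muscle, where 0.281% of 12460 genes passed (16 higher and 19 lower in KO), and 1 of 8, Sat1, had an unadjusted limma p below 0.05 (1774 of all genes). In injured muscle 0 of 8 passed, where 0.269% of 12625 genes passed, and 0 had an unadjusted limma p below 0.05 (1303 of all genes). edgeR, DESeq2 and the q-values of the authors' deposited table also gave 0 of 8 in both. In uninjured muscle 4 of 8 changes were positive, with a median of 0.01 against -0.18 over all genes. In injured muscle 3 of 8 were positive, with a median of -0.06 against 0.01. None of the 8 separated the genotypes in injured muscle, where KO was wholly lower for 8.63% and wholly higher for 8.29% of genes.

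The injured comparison turned on 1 library, KO replicate 2. Without it 3 of 8 genes passed (limma): Oaz1 with a change of 1.59 (adjusted p = 0.0235), Sms with 0.66 (adjusted p = 0.0270) and Sat1 with -1.08 (adjusted p = 0.0156). Oaz1 and Sms were then higher and Sat1 lower in KO. The background moved in the same way, from 0.269% to 19.0% of genes, and with 2 KO libraries left the spread is pooled with that of WT. This library stood apart from the other injured KO libraries in other measures too. It had 23.2% of reads on mitochondrial genes, against 4.30% to 4.95% in those. It held 288.1 RPM of Malat1, a nuclear-retained RNA, against 73.4 to 80.4 RPM. In Malat1 this library lay within the injured WT range of 249 to 494 RPM. Its 4 Schwann cell markers summed to 1177 RPM, its 6 endothelial markers to 442.9 RPM and its 5 red blood cell markers to 583 RPM, each above every other library. In the other injured KO libraries these sums were 210 and 325 RPM, 283 and 253 RPM, and 151 and 261 RPM. Within the same animal the Schwann cell sum was 366 RPM in the uninjured library, where Sat1 was lower too. The part of these differences in the result was not tested.

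Depth and composition differed between libraries, and several members moved with measures of composition. Totals ran from 1880087 (uninjured WT replicate 2, where 3 reads amount to 1.60 RPM) to 49392472 reads. The share of reads on mitochondrial genes was 13.8% to 22.3% in uninjured WT, 3.63% to 15.3% in uninjured KO, 8.35% to 14.8% in injured WT and 4.30% to 23.2% in injured KO libraries. The 4 libraries with the lowest share, 3.63% to 6.76%, were those of KO replicates 1 and 3. In these 4 libraries Oaz1 lay at 171.2 to 306.1 RPM and in the other 8 libraries at 42.4 to 155.6 RPM. Sms lay at 104.9 to 171.7 RPM against 71.1 to 118.4, and Sat1 at 15.6 to 22.2 RPM against 15.7 to 49.3. Across the 12 libraries, from 6 animals, the Pearson r with the mitochondrial share was -0.88 for Oaz1 and for Sms and 0.70 for Sat1, given as a description. Malat1 ranged from 213 to 284 RPM over uninjured WT libraries and from 81.1 to 106.5 RPM over uninjured KO libraries, and its r with Sat1 was 0.83. Scaling to reads outside mitochondrial genes put the uninjured Sat1 change at -1.27 (limma adjusted p = 0.0624), against -1.12 without it. That scaling also moved the median change of all genes from -0.18 to -0.32. TMM scaling gave a Sat1 change of -0.93 (limma adjusted p = 0.141), with a median of -0.02. Upper quartile scaling also gave a smaller drop of Sat1 than -1.12 (limma adjusted p = 0.1335), with a median of -0.08. The part of library composition in these results was not tested beyond these scalings.

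**Figure D3:**
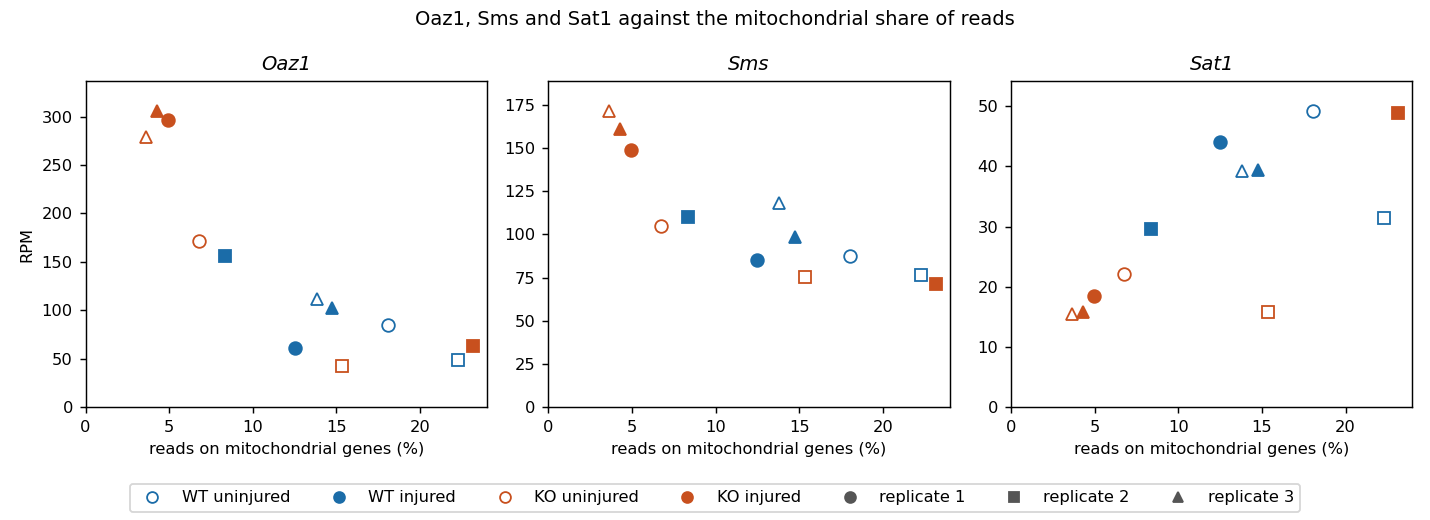
Level of Oaz1, Sms and Sat1 (vertical axis, RPM) against the share of reads on mitochondrial genes (horizontal axis, %) in each of the 12 libraries; open symbols are uninjured, filled symbols injured, and shape gives the replicate number. Oaz1 is above 171 RPM only in the 4 KO libraries with a share of at most 6.76%, and the injured KO library at 23.2% has the Sat1 level of WT libraries.

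Targeting and tissue were checked in the same tables. Myf6 ranged from 25.0 to 120.7 RPM over WT libraries and from 1.86 to 3.46 RPM over KO libraries. The 10 markers of muscle fibres summed to 175504 to 194949 RPM in uninjured WT and 211904 to 272659 RPM in uninjured KO libraries, without overlap, where Sat1 also separated the genotypes. In injured muscle their sums overlapped, at 182531 to 225166 RPM in WT and 173165 to 216137 RPM in KO. Of the lists for other cells, the 8 macrophage and neutrophil markers summed to 71.3 to 136 RPM in uninjured WT libraries. In uninjured KO libraries their sums were 43.5 to 71.6 RPM, so the groups overlapped. None of the 6 tested there passed, and Ptprc and S100a8 were at 0 in some libraries. Their median change was -0.91. It was also negative for fibroblast (-0.80), red blood cell (-0.67), Schwann cell (-0.62), satellite cell (-0.26), tendon (-0.16) and endothelial (-0.03) markers. For adipocyte markers it was 1.38. The 7 slow fibre markers had sums without overlap: 1258 to 1585 RPM in uninjured WT and 1612 to 3539 RPM in uninjured KO. They summed to 334 to 1387 RPM in injured WT and 1602 to 5461 RPM in injured KO libraries, and the 5 adipocyte markers to 379 to 1286 and 1315 to 2882 RPM. None of the fibre, slow fibre or adipocyte markers passed in either injury state. The part of cell makeup in the polyamine values was not tested. In bulk muscle, fewer cells of a type and less RNA per cell cannot be told apart.

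Injury was compared between the legs of each genotype over all 12 libraries, in limma fits without a block for the animal. In WT 7 of 8 changes were positive, as were 62.4% of all genes, with a median of 0.25 against 0.09. In KO 8 of 8 were positive, as were 80.9% of all genes, with a median of 0.42 against 0.29. TMM scaling left 6 of 8 positive in each genotype, with Srm and Sat1 negative in WT and Srm and Sms negative in KO, and moved the median of all genes in KO to 0.05. By limma 0 of 8 passed in WT and 0 of 8 in KO, where 0% of 13337 genes passed in each comparison. No member had an unadjusted limma p below 0.05, against 172 genes in WT and 468 in KO, and edgeR and DESeq2 gave 0 of 8 as well.

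Within animals, Smox was higher in the injured leg in 5 of 6, at 1.30-fold, 1.94-fold and 1.05-fold in WT and 1.65-fold, 1.25-fold and 0.962-fold in KO. The limma changes of Smox were 0.46 (SE 0.37, adjusted p = 1) in WT and 0.33 (SE 0.37, adjusted p = 0.768) in KO. Oaz1 was higher in the injured leg in 3 of 3 KO animals (1.73-fold, 1.48-fold and 1.095-fold) and in 1 of 3 WT animals. Amd1 was higher in 4 of 6, with ratios from 0.711 to 4.48, and Odc1, Srm and Sat1 in 3 of 6. Sms was higher in 2 of 6. The largest rises of Amd1, Oaz1, Odc1, Smox and Sms were all in WT replicate 2. The uninjured library of that animal was the smallest, and its mitochondrial share went from 22.3% to 8.35%. The difference of the injury response between genotypes passed for 0 of 8 genes, where 0% of 13337 genes passed, and the lowest adjusted p among the 8 was 0.9999 (limma). No member had an unadjusted p below 0.05 there, against 208 genes, and edgeR and DESeq2 also gave 0 of 8.

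**Figure D4:**
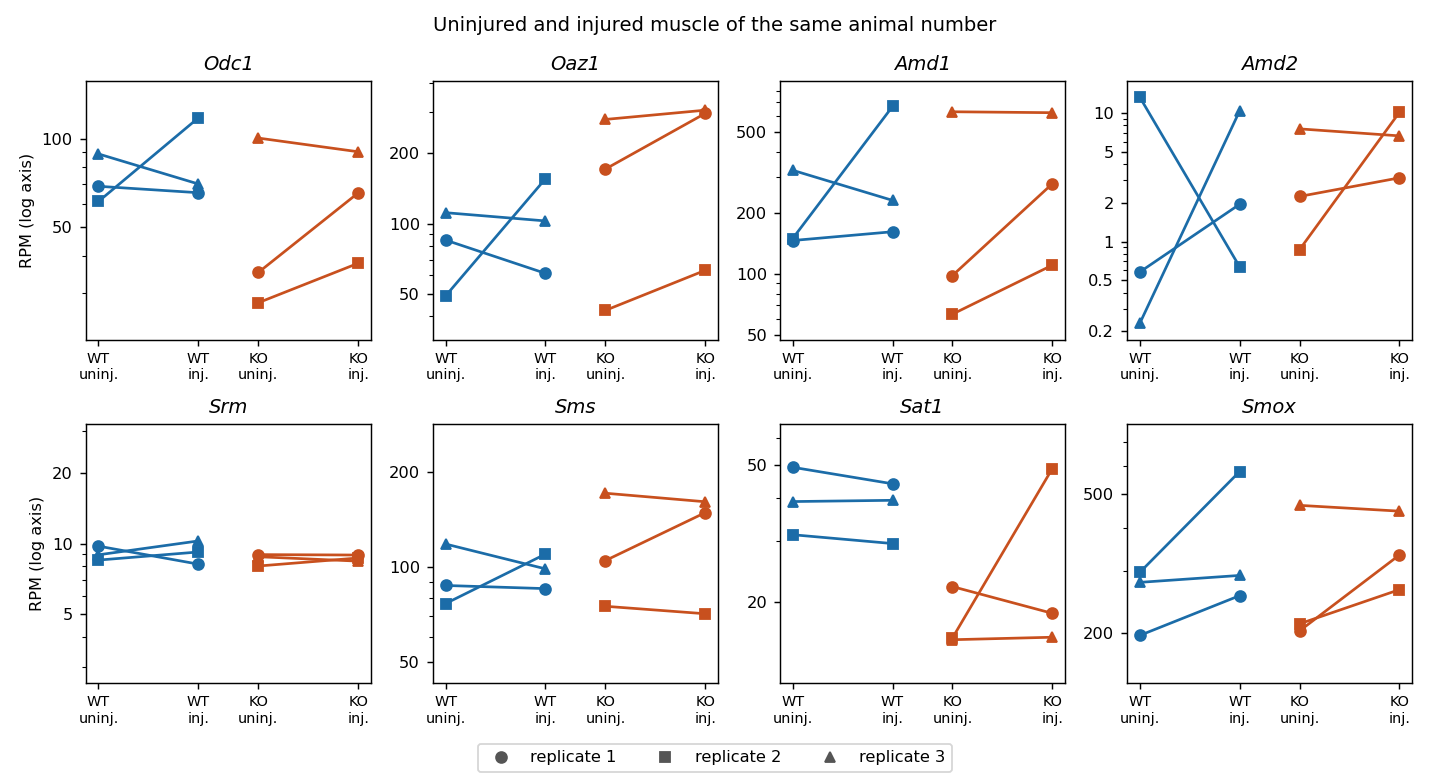
RPM of each gene (vertical log axis) in the uninjured and injured library of the same animal number, joined by a line; blue is WT, orange is KO, shape gives the replicate number. Amd1 of KO replicate 3 is level at 629.5 and 622.9 RPM while the other KO animals rise, and Sat1 rises 3.10-fold in KO replicate 2 alone.

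Some members rose and fell together across libraries. Among the 28 pairs, 3 had a Pearson r above 0.9 over the 12 libraries: Oaz1 with Sms (r 0.95, Spearman rho 0.91), Odc1 with Amd1 (r 0.92, rho 0.93) and Amd1 with Smox (r 0.90, rho 0.86). Leaving out the 2 libraries farthest from the median of the gene named earlier in each pair gave r 0.92, 0.89 and 0.84. These are descriptions, since the libraries come in pairs from 6 animals and share depth and composition. The genes most like Amd1 over the same libraries, of 13337 compared, were Klhl38 (r 0.96), Phka1 (0.95), Aff1 (0.95), Fbxo32 (0.95) and Dnajb5 (0.95). Phka1 encodes a regulatory subunit of muscle phosphorylase kinase, and Fbxo32 is the atrophy-linked ubiquitin ligase atrogin-1. Those most like Smox were Amd1 (0.90), Gm38158 (0.90), Smyd1 (0.89), Myod1 (0.89) and Sun2 (0.89). Myod1 is a myogenic factor of the same family as Myf6, and Smyd1 is a muscle methyltransferase.

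The wider polyamine list held 23 genes of arginine and ornithine supply, antizymes and their inhibitors, transport and hypusine formation. Of its 15 genes tested in uninjured and 16 in injured muscle, 0 passed in either direction. In each injury state 2 genes of this list had all KO libraries above all WT libraries, Dohh and Oaz2 of 15 in uninjured muscle, against 6.20% of all genes, and Slc7a1 and Paox of 16 in injured muscle, against 8.29%. None had them below. The smallest p-values in uninjured muscle belonged to Dohh, the hydroxylase that completes hypusine on the translation factor Eif5a, and to Oaz2, a second antizyme. Dohh stood at 27.4, 27.7 and 35.8 RPM in WT and 57.1, 40.3 and 55.9 RPM in KO, all KO above all WT (change 0.73, SE 0.28, limma adjusted p = 0.280). Oaz2 stood at 72.7, 69.2 and 77.2 RPM in WT and 118.5, 88.7 and 161.4 RPM in KO, also without overlap (change 0.70, SE 0.28, limma adjusted p = 0.303). Azin1, the antizyme inhibitor that spares ornithine decarboxylase, had a change of -0.98 (SE 0.53, limma adjusted p = 0.435) with overlapping groups. In injured muscle the leading genes were Slc7a1, a transporter of arginine and ornithine, and Paox, the oxidase of acetylated polyamines. Slc7a1 stood at 2.63, 2.32 and 1.80 RPM in WT and 3.64, 4.32 and 4.39 RPM in KO (change 0.66, SE 0.20, limma adjusted p = 0.339). Paox stood at 3.98, 3.93 and 4.21 RPM in WT and 6.02, 5.59 and 5.55 RPM in KO (change 0.41, SE 0.17, limma adjusted p = 0.467). Both kept KO replicate 2 on the KO side. Oaz2 in injured muscle had a change of 0.53 (limma adjusted p = 0.572) and overlapped.

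The methionine list held 17 genes of S-adenosylmethionine supply and of salvage of the methylthioadenosine that the synthases release. Of 14 tested, 0 passed in either injury state. In injured muscle 4 of the 14 genes (Mat2a, Mtap, Apip and Mri1, the last named after its values were seen) had all KO libraries below all WT libraries, as had 8.63% of all genes, and 0 had them above. In uninjured muscle 1 of 14, Mtap, did so, against 15.5% of all genes. Mat2a, which makes S-adenosylmethionine, stood at 178.1, 267.2 and 219.1 RPM in WT and 154.5, 115.6 and 166.4 RPM in KO (change -0.60, SE 0.23, limma adjusted p = 0.439). Mtap, which cleaves methylthioadenosine, stood at 18.8, 20.6 and 20.2 RPM in WT and 17.6, 13.4 and 11.9 RPM in KO (change -0.46, SE 0.19, limma adjusted p = 0.473). Apip, a later salvage enzyme, stood at 35.3, 35.2 and 35.1 RPM in WT and 30.8, 23.5 and 27.6 RPM in KO (change -0.36, SE 0.17, limma adjusted p = 0.525). In uninjured muscle the leading genes, Mat2b, Ahcyl1 and Mtr, had changes of -0.69, -0.55 and -0.99 with limma adjusted p = 0.506, 0.518 and 0.519 and overlapping groups. Of 6 tested genes among 7 known regulators of polyamine genes, 0 passed. Of those with the smallest p-values, Nfe2l2 and Mxi1 in uninjured and Mxi1, Ppargc1a and Myc in injured muscle had overlapping groups, with changes of -0.64 and 0.41 and of 0.48, -0.37 and 0.08 (limma adjusted p from 0.598 to 0.947).

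Flag-Myf6 peaks lay within 50 kb of the gene start for 3 of the 7 members with a RefSeq start, Oaz1, Sat1 and Smox, as for 39.1% of 17492 protein-coding genes. Within 10 kb there were 0 of 7, against 12.6% of genes. The peak nearest to Oaz1 (chr10:80836928-80837156) lay 10.4 kb downstream of its start, beyond its end and in the gene Lingo3, with a fold enrichment over background of 16.8 as the authors' peak caller gave it. A weaker peak lay 13.1 kb away with a fold of 9.17. The peak nearest to Smox (chr2:131478379-131478534, fold 5.48) lay 13.4 kb upstream and in no annotated gene. The peak nearest to Sat1 (chrX:155262814-155262950, fold 5.48) lay 46.5 kb upstream, in the gene Acot9. Amd1 had its nearest peak at 55.1 kb, and Amd2, Sms and Odc1 at 125, 163 and 226 kb. None of these 7 members had a peak inside the gene, and Srm was not checked. The median fold of all 12898 peaks was 7.68. These values come from 1 ChIP library, of myotubes and not of the muscle used for RNA.

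The promoters of Oaz1 and Sat1 are shown because these members have the strongest nearby peak and the clearest difference between uninjured groups. Each line holds 250 bases before to 30 bases from the gene start in RefSeq (GRCm38.p6), Oaz1 at chr10:80826406-80826685 on the plus strand and Sat1 at chrX:155216420-155216699 on the minus strand. Capitals mark CANNTG, the E-box core that myogenic factors bind.
Oaz1: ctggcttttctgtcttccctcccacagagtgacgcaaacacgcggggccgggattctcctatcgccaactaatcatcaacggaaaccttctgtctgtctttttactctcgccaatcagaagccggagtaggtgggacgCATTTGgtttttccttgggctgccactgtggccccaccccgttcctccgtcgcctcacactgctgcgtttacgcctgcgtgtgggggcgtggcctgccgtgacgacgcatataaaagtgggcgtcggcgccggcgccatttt
Sat1: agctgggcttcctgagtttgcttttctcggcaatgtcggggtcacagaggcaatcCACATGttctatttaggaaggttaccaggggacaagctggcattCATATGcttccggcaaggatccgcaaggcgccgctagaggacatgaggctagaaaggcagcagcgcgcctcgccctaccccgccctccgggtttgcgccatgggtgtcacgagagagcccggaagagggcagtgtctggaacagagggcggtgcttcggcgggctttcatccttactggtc
Oaz1 has 1 match, 112 bases before the start, and Sat1 has 2, at 195 and 151 bases before it. The motif reads the same on both strands, and 69.0% of 21263 RefSeq windows of 300 bases hold it. CAGCTG, a form of it, was in no member's window and in 15.6% of all windows. CACGTG, another form and the core bound by Myc, was in 1 member, Sms (1 match), and in 7.84% of all windows. Both forms are also CANNTG matches and read the same on both strands. No peak was found in any of these windows.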

How the data were processed

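The 8 genes, the lists and the tests were chosen with earlier results of these data known. The authors deposited RPM values (reads assigned to a gene, scaled to 1000000 in each library) for 49585 genes in 1 table per injury state, with their log2 fold change (WT over KO, sign turned here), SE, p-value and q-value, as the file headers name them. The submitters' processing notes name HISAT2 2.1.0, SAMtools, featureCounts, DESeq2, Bowtie 1.1.0 and MACS2 2.1.0.20140616 and the builds mm10 and GRCm38.p5, without roles. RNA was extracted with Trizol and libraries were made with the TruSeq RNA v2 kit, per the labels' protocols. The deposited peak list gives the authors' signal height, fold over background and, per the file headers, −log10 of the p-value and of the q-value, at a q cutoff of 0.05.

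Whole reads were recovered from the RPM steps: in each library 100% of the values tested were whole within 0.1 read. limma 3.58.1 (R 4.3.3, trend) was fitted on log2(RPM + 1) for genes with at least 1 RPM in 3 libraries, KO against WT on 6 libraries and the injury comparisons on 12, with Benjamini-Hochberg adjustment over all genes, two-sided, threshold 0.05. Low genes' changes are understated on this scale. Scripts were tested on simulated data. Alternatives were edgeR 4.0.16 and DESeq2 1.42.0 on recovered reads, other scalings, filter and pseudocount, a replicate block and each library left out; leaving out both libraries of KO replicate 2 was chosen after seeing the data. Exact permutation tests used scipy 1.17.1.

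Replicate numbers were taken to pair libraries within a genotype, since the labels give both libraries the same number with L or R. The number was read as the animal and L and R as its legs, which the labels do not state. Within a number, deviations from the group mean correlated at 0.28, -0.23 and 0.02 in WT and 0.02, 0.50 and 0.63 in KO. Between genotypes the numbers name different animals. Nothing else says how the animals were housed or sampled, so p-values measure the spread between these libraries.

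Named were all 8 genes, for each further list the genes past the threshold or otherwise the 3 with the smallest p-value per comparison, and the 5 genes most correlated with Amd1 and with Smox; 1 gene that this rule names is not reported here. Promoter windows, matched by symbol, were found for 7 of 8 members in RefSeq (not Srm). The reference is GRCm38.p6, whose chromosome coordinates are those of mm10.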

Additional observations from a re-analysis of the deposited data

How the results depend on the processing

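The count of members passing was 0 in all 5 comparisons and stayed 0 under the alternatives run, with these exceptions. A replicate block gave 1 member in uninjured KO against WT, Sat1 (-1.12, adjusted p = 0.0259), where the block also raised the count over all genes from 35 to 752. The numbers name different animals in the 2 genotypes and their deviations correlated at 0.04, 0.26 and 0.37, so they are not shown to pair, and in the injured comparison they correlated at -0.45, -0.60 and -0.30 and the block lowered the count over all genes from 34 to 0. Within genotypes, where the numbers pair by animal, the block changed no member's call. Leaving out each library in turn gave 0 to 3 members in the injured comparison (3 without injured KO replicate 2) and 0 elsewhere. Members near a Flag-Myf6 peak numbered 3 within 50 kb, 0 within 10 kb, 4 of 7 within 100 kb (56.1% of all genes) and 1 of 7 within 50 kb with a fold of at least 10 (15.2% of all genes).

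Over all genes, 35 passed in uninjured muscle, against 55 with edgeR, 663 with DESeq2, 110 with TMM scaling, 122 with upper quartile scaling, 199 with scaling outside mitochondrial genes (31 higher and 168 lower, against 16 and 19), 1 with no filter, 20 with a pseudocount of 0.1, 167 with all 12 libraries in 1 fit and 331 by the authors' q-values. In injured muscle 34 passed, against 427 with DESeq2, 19 with no filter, 56 with all 12 libraries and 225 by the authors' q-values. Leaving out a library gave 3 to 84 genes in uninjured and 0 to 2343 in injured muscle.

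The uninjured Sat1 change kept its sign in all 16 alternatives, between -1.28 and -0.93. Signs changed as follows, each in a comparison where that member passed under no alternative. The adjusted p was at least 0.5 in each case, and the cause was not tested. In uninjured KO against WT, Amd1 was 0.37 (edgeR), 0.37 (DESeq2) and 0.38 (authors), Amd2 was -0.22, -0.50 and -0.54, and Srm was 0.14, 0.15 and 0.15. There Srm was also 0.11 with TMM and 0.039 with upper quartile scaling, and Smox was -0.061 with scaling outside mitochondrial genes. For injury in WT, Srm was -0.040 (edgeR), -0.036 (DESeq2), -0.050 (TMM), -0.064 (upper quartile) and -0.079 (outside mitochondrial genes), Sms was -0.015 (DESeq2), -0.013 (upper quartile) and -0.030 (outside mitochondrial genes), and Amd2 was -0.39 (DESeq2). For injury in KO, Srm was -0.29 (edgeR), -0.29 (DESeq2), -0.25 (TMM) and -0.25 (upper quartile), and Sms was -0.11, -0.12, -0.18 and -0.18. Without both libraries of KO replicate 2, chosen after seeing the data, injury in KO gave Srm -0.030 and Sat1 -0.11.

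Leaving out each library in turn gave ranges across 0. In uninjured KO against WT these were -1.27 to 0.37 for Amd1, -0.35 to 0.80 for Amd2, -0.060 to 0.53 for Sms and -0.29 to 0.30 for Smox. Amd2 failed the filter there without WT replicate 2, KO replicate 1 or KO replicate 3, so its range lacks these fits. In injured KO against WT the ranges were -0.73 to 0.51 for Amd1, -0.15 to 0.0002 for Srm and -0.27 to 0.32 for Smox. For injury in WT they were -0.087 to 0.33 for Odc1, -0.46 to 1.45 for Amd2, -0.056 to 0.092 for Srm, -0.060 to 0.25 for Sms and -0.23 to 0.085 for Sat1. For injury in KO they were -0.29 to 1.24 for Oaz1, -0.030 to 0.042 for Srm, -0.16 to 0.48 for Sms and -0.036 to 0.75 for Sat1. For the interaction, 50 of 168 single values over 21 alternatives took the other sign, and no single value is reported. The 3 libraries of a group, and 1880087 reads in the smallest, limit the precision.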
